A study of Mus musculus with 5 samples.

Results

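Foreign body granulomas around silk and around sponge, each taken at 2 weeks, were compared cell state by cell state. The unit of comparison was the subcluster that the authors deposited for each cell. A subcluster entered when it held at least 50 cells in both libraries, and its raw UMI counts were then summed per library. This left 15 subclusters: C3 to C9 of the monocytes, macrophages and dendritic cells (written Mo-Mac), F1 to F4 and the group named Low quality of the fibroblasts, and N1 to N3 of the neutrophils. They held 9231 silk cells and 10782 sponge cells, which is 20013 of the 22578 cells of these libraries and of the 41191 cells of the whole series. The question was which differences between the materials held inside every subcluster and which came from a different mix of subclusters.

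Both groups were mouse granulomas that differed by the labels in the implanted material alone, silk or sponge, at the same time point. The labels state no strain, age, sex, number of animals, implant site or way of dissociating the tissue. Cells were washed in buffered saline with albumin before droplet capture, and polyadenylated RNA was read with a 3' kit. Each group was 1 library. No test between groups was therefore possible, no p-value is given, and the 95% intervals cover counting error only, not differences between animals or preparations.

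A foreign body granuloma is a wall of macrophages, with fibroblasts, vessels and neutrophils, that the body builds around material it cannot digest. Blood monocytes are drawn in by chemokines such as Ccl2, Ccl7 and Ccl8 and become macrophages, which can fuse on the material. Interferons switch on a shared set of genes in most cell types: type I interferons act through a promoter element called ISRE, and interferon gamma acts mainly through an element called GAS and the factor Irf1. Fibroblasts lay down the collagen of the capsule, and neutrophils carry granules filled with proteases and iron-binding proteins.

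The silk library held 10231 cells and 63570615 UMIs, with a median of 4201 per cell, and the sponge library held 12347 cells and 96066597 UMIs, with a median of 5206. They shared 26 cell barcodes. Within subclusters, silk cells had the lower median depth in 14 of 15 cases, C8 being the exception (10161 UMIs in silk and 9157 in sponge). In relative terms the gap was widest in C5, with 2597 and 4478. The defining markers of each class were present in every compared label. Lyz2 ranged from 1289 to 17157 CPM (UMIs of a gene scaled to a label sum of 1000000) over the silk Mo-Mac labels, Col1a1 from 11322 to 21877 CPM over the silk fibroblast labels, and S100a8 from 7548 to 46041 CPM over the silk neutrophil labels. Some labels were mixed. F4 was led by the macrophage genes Lyz2, Cd74 and Ctss, N3 by Fn1, Cd36 and Cd74, N2 and Low quality by haemoglobin genes, and C9 joined genes of mature dendritic cells, Ccl22 and Ccr7 among them, with mast cell genes. Class sums were therefore used only to split a difference into its parts, and subclusters were compared by their labels.

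RNA of other cells also differed between the libraries. In Mo-Mac cells, the summed level of 10 fibroblast markers ranged from 353 to 836 CPM over the 7 sponge subclusters and from 72.0 to 248 CPM over the 7 silk subclusters. In neutrophils it ranged from 495 to 1053 CPM in sponge and from 158 to 325 CPM in silk. In fibroblasts themselves the same sum was close to equal, with log2 ratios from -0.26 to 0.08. Haemoglobin genes summed to 3895 CPM in silk N2 and 4.64 CPM in sponge N2. The reverse held for C9, with 1.03 and 2457 CPM, and for Low quality, with 0 and 3992 CPM. The list of mast cell and basophil markers summed to 67.0 CPM in silk C9 and 698 CPM in sponge C9. The part of such RNA in the differences below was not tested, so values in cell types that are not known to make a gene are given beside it.

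The mix of subclusters differed more than most genes did inside them. C7, which is led by Mmp12, Gpnmb, Lpl and Ctsk, was 59.2% of silk (exact 95% interval 58.1 to 60.3) and 15.1% of sponge Mo-Mac cells (14.3 to 15.9). C4, led by Saa3, Ly6i, Cxcl10 and Nos2, was 1.85% in silk (1.55 to 2.18) and 34.2% in sponge (33.1 to 35.3), and C5, led by Gas6, Selenop and Cbr2, was 1.38% and 18.3%. Among fibroblasts, F1, led by Pi16, Myoc and Clec3b, was 11.1% of silk and 58.8% of sponge cells, and F2, led by Mmp13 and Cxcl5, was 48.3% and 13.6%. Among neutrophils, N1, led by Retnlg and Il1r2, was 72.7% of silk and 34.8% of sponge cells, and N2 was 19.1% and 54.8%. The remaining subclusters differed by less than 10 percentage points. Losses of single cell types during dissociation were not measured.

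**Figure D1:**
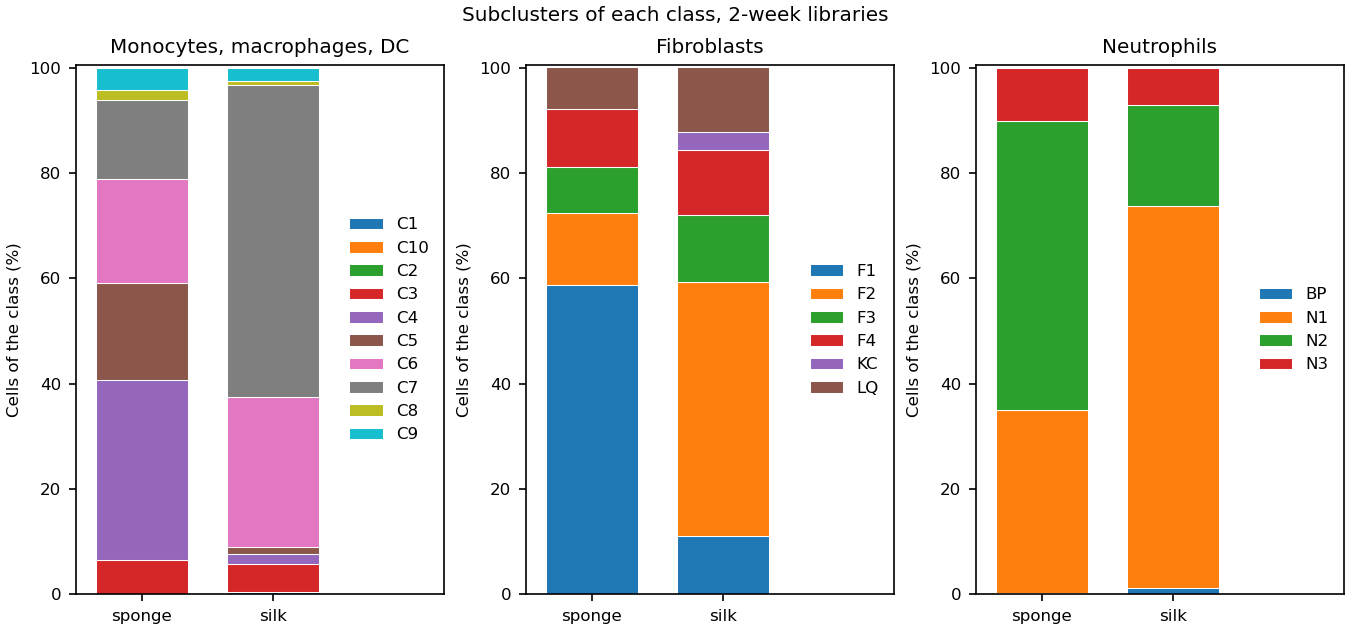
Stacked bars of the share of each class's cells (percent, vertical axis) in each deposited subcluster (colours, LQ is Low quality) for the sponge and the silk library at 2 weeks (horizontal axis), 1 panel per class. C7 fills 59.2% of the silk Mo-Mac bar against 15.1% of the sponge bar, while C4 fills 1.85% against 34.2%.

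Inside a subcluster, few genes differed strongly. A gene was measured where the higher library had at least 20 UMIs and 50 CPM, and it was called different at 2-fold or more on the scale log2((CPM + 10)/(CPM + 10)), written below as the log2 ratio of silk to sponge. In C3, 36 of 3076 measured genes were lower in silk (1.17%) and 15 higher (0.488%). C4 had 54 lower (1.67%) and 57 higher (1.77%) of 3226, and C5 had 89 (2.77%) and 69 (2.15%) of 3215. C6 had 56 (1.72%) and 28 (0.86%) of 3255, and C7, the subcluster with the most silk cells, had 38 (1.24%) and 30 (0.979%) of 3065. C8 and C9 had 150 (4.36%) and 68 (2.24%) lower and 142 (4.12%) and 25 (0.825%) higher, where C8 rests on 61 silk cells.

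Fibroblast subclusters F1 to F4 had 58 (1.76%), 52 (1.58%), 54 (1.52%) and 101 (2.92%) genes lower in silk and 74 (2.24%), 38 (1.15%), 59 (1.66%) and 42 (1.22%) higher. The shallow Low quality group had 251 (9.9%) and 78 (3.08%). Neutrophil subclusters N1, N2 and N3 had 30 (1.42%), 205 (11.0%) and 162 (5.08%) lower and 126 (5.98%), 186 (10.0%) and 132 (4.14%) higher. The balance between directions depended on the scaling. With each subcluster centred on its median gene, the larger side turned in N1 (54 lower and 36 higher), C4 (61 and 41), F1 (65 and 64) and C8 (143 and 157). The share of higher genes also fell by more than 8 percentage points in Low quality (374 and 40), C7 (51 and 19), F2 (58 and 27), F4 (119 and 30) and C3 (41 and 11).

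In Mo-Mac cells, 2026 genes were measured in all 7 subclusters. Of these, 3 were at least 2-fold lower in silk in every one (0.148%) and 0 were at least 2-fold higher in every one (0.0%). Direction alone was shared more widely: 212 genes lay below zero in all 7 and 256 above. With each cell thinned to 500 UMIs, 361 genes were measured in all 7 and 0 of them were 2-fold lower in every one. The 3 genes were Ccl8, a chemokine for monocytes and lymphocytes, and the collagen genes Col3a1 and Col1a1.

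Ccl8 (chromosome 11, 82115185 to 82116799, GRCm38) differed most. Its sponge and silk levels were 4575 and 1183 CPM in C5, 1628 and 26.8 CPM in C4, and 1348 and 74.7 CPM in C8. They were 232 and 3.01 CPM in C7, 175 and 4.69 CPM in C6, 103 and 2.50 CPM in C3, and 95.4 and 4.12 CPM in C9. Every silk subcluster other than C5 was below every sponge subcluster, and the log2 ratios ran from -5.48 in C4 to -1.94 in C5. Sponge NK and T cells, which are not known as a source of Ccl8, stood at 139 CPM against 3.46 CPM in silk. Sponge levels in C3, C6, C7 and C9 were of that order, so for these 4 a lower background of Ccl8 RNA and a lower level in the cells cannot be told apart. Levels in C4, C5 and C8 were above it.

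The neighbouring genes Ccl7 and Ccl2 (chromosome 11, 82045712 to 82047525 and 82035571 to 82037453), whose products attract monocytes through Ccr2, were below sponge in all 7 Mo-Mac subclusters, but by less than 2-fold in some. Ccl2 stood at 1288 CPM in sponge and 178 CPM in silk in C6, at 341 and 32.2 CPM in C7, and at 555 and 175 CPM in C4. It was closer in C5 (1678 and 1097 CPM) and in C3 (277 and 156 CPM). Ccl7 stood at 725 and 59.3 CPM in C6, at 393 and 52.2 CPM in C4, and at 1813 and 1180 CPM in C5. C5 had the highest Ccl2, Ccl7 and Ccl8 levels of the Mo-Mac subclusters in both libraries and the smallest log2 ratio of each. In sponge and silk NK and T cells Ccl2 stood at 90.1 and 3.46 CPM, far below the level of sponge C6.

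The collagen genes were lower in every Mo-Mac subcluster at levels that are small beside those of fibroblasts. Col3a1 ranged from 127 to 299 CPM over the sponge subclusters and from 22.7 to 71.0 CPM over the silk subclusters. Fibroblast subclusters themselves held 13590 to 33184 CPM in sponge and 12882 to 29936 CPM in silk, with log2 ratios close to zero, such as -0.15 in F1. NK and T cells, which are not known to make it, had 208 and 46.1 CPM, and endothelial cells 983 and 128 CPM. The Mo-Mac values for Col3a1 in sponge thus lay around the level in a cell type not known to make it, so a lower background of collagen RNA and a lower level in the cells cannot be told apart.

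Irf1, the transcription factor through which interferon gamma acts, was at least 2-fold lower in silk in 6 of the 7 subclusters. Sponge and silk levels were 203 and 70.6 CPM in C3, 237 and 81.9 CPM in C4, 225 and 56.8 CPM in C5, 183 and 40.1 CPM in C6, 117 and 21.8 CPM in C7, and 145 and 23.6 CPM in C8. No silk subcluster among these reached any sponge subcluster. C9, the mixed dendritic and mast cell label, differed by less (137 and 77.3 CPM, log2 ratio -0.75). Without C9, 5 of 2184 genes were lower in every Mo-Mac subcluster (0.229%), Irf1 and the acute-phase gene Saa3 being the additions. Saa3 had log2 ratios from -3.26 to -1.57 and stood at 3893 CPM in sponge C4 and 398 CPM in silk C4. Saa3 is the first leading gene of C4, and in the rest of the Mo-Mac labels it stood at 73.1 CPM over both libraries. NK and T cells had Saa3 at 51.2 CPM in sponge and 5.76 CPM in silk. The 73.1 CPM averages sponge and silk, so it cannot be set against either NK and T cell level alone. The part of background RNA in the Saa3 difference outside C4 was not tested.

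No gene was 2-fold higher in silk in every Mo-Mac subcluster, but some were higher by a smaller and steady margin. Irf2bp2, a co-repressor that binds the interferon regulatory factor Irf2, had log2 ratios from 0.58 to 1.19 over all 15 subclusters. It stood at 220 and 430 CPM in sponge and silk C7, at 393 and 911 CPM in C5, and at 358 and 625 CPM in C6. It was also higher in silk in endothelial cells (101 and 212 CPM), in NK and T cells (131 and 356 CPM) and in B cells (278 and 573 CPM).

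Vegfa, the growth factor for blood vessels, was higher in silk in all 7 Mo-Mac subclusters, by log2 ratios from 0.58 in C6 (444 and 668 CPM) to 1.16 in C8 (87.9 and 208 CPM). It was also higher in the 3 neutrophil subclusters, for example 130 and 336 CPM in N2, and lower in F1, F2 and F3 (log2 ratios -0.25, -0.34 and -0.48). Cxcr4, the receptor of Cxcl12, ran from 0.57 in C9 to 1.42 in C5, where it stood at 223 CPM in sponge and 613 CPM in silk. Both genes were higher in silk NK and T cells too, Vegfa at 134 and 258 CPM and Cxcr4 at 311 and 650 CPM.

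Of the 256 genes above zero in all 7 Mo-Mac subclusters, Srxn1 and Gsr encode antioxidant enzymes. Srxn1, which repairs oxidised peroxiredoxins, stood at 172 CPM in sponge and 311 CPM in silk in C7, and at 54.1 and 195 CPM in C8. Gsr, glutathione reductase, stood at 107 and 248 CPM in C7 and at 83.3 and 199 CPM in C6. Prkcd, a kinase of the protein kinase C family, and Cd9, a tetraspanin of the cell surface, were also higher in all 7. Prkcd ran from 0.47 in C5 to 1.14 in C8. Cd9 ran from 0.41 in C7 to 2.10 in C8, with 442 CPM in sponge and 1294 CPM in silk in C4.

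**Figure D2:**
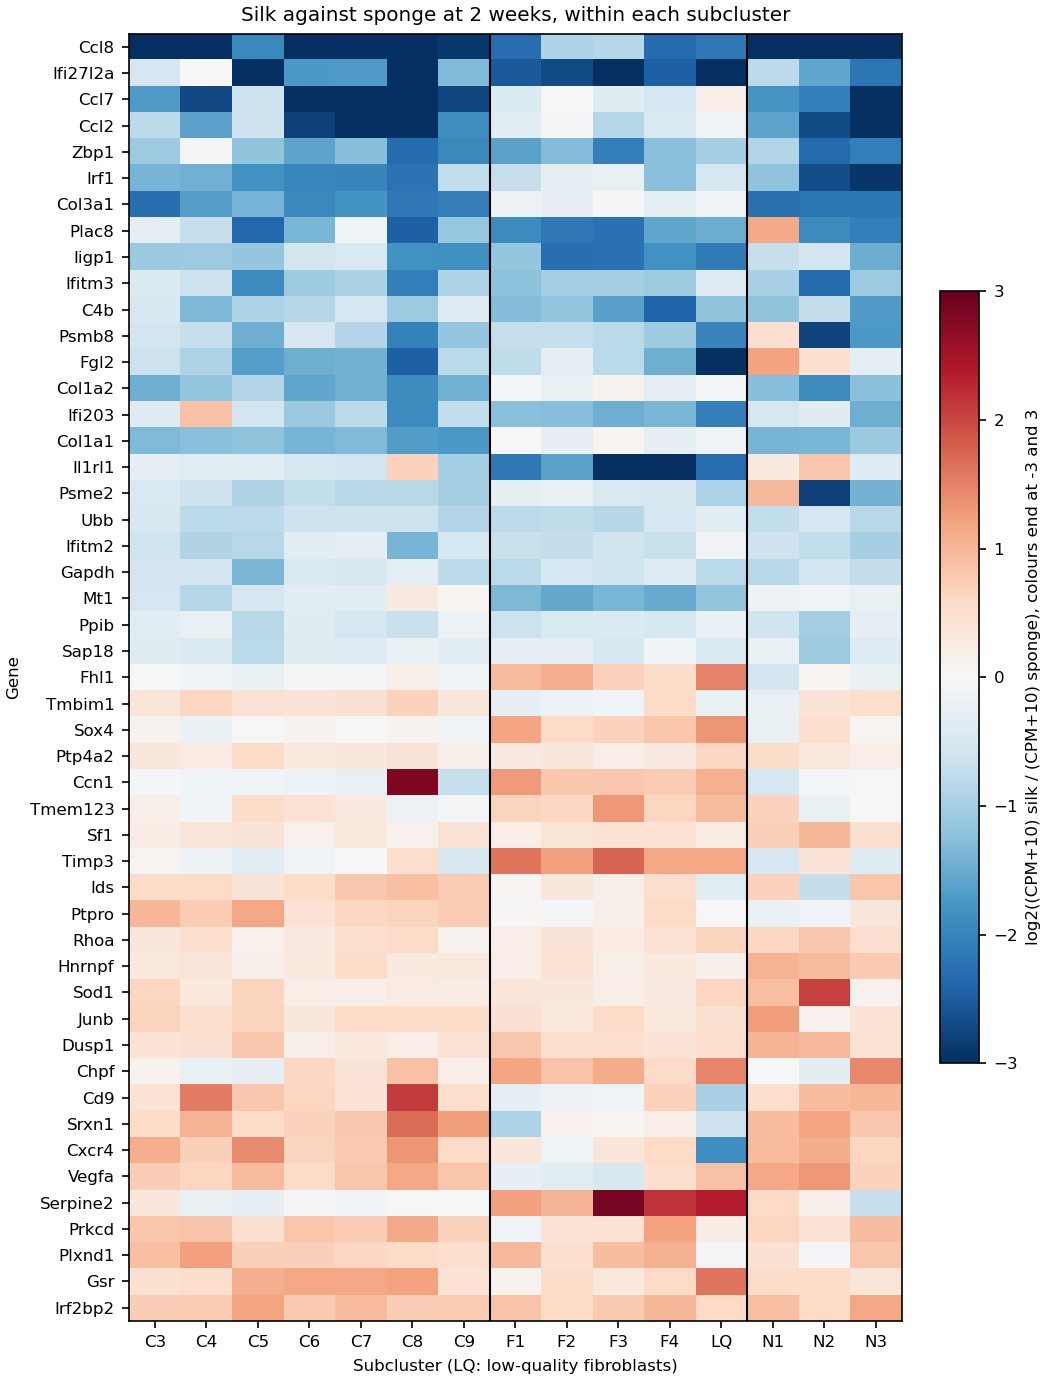
Log2 ratio of silk to sponge at 2 weeks (colour, with 10 CPM added, colours ending at -3 and 3) for named genes (vertical axis) in the 15 compared subclusters (horizontal axis). Ccl8 is blue in all 15 columns and Irf2bp2 red in all 15, while Timp3 and Serpine2 are red in the fibroblast columns.

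In fibroblasts the count was taken over 5 labels, not 7, so it is not set against that of Mo-Mac cells. Of 2060 genes measured in all 5 fibroblast labels, 8 were at least 2-fold lower in silk in every one (0.388%) and 2 were at least 2-fold higher (0.0971%). Without the Low quality label the counts were 13 (0.477%) and 2 (0.0734%) of 2726. With an offset of 50 CPM, 4 were lower and 0 higher. The lower genes were Ifi27l2a, Ifi203, Iigp1 and Zbp1, which interferons induce, with Il1rl1, Plac8, Mt1 and C4b. The higher genes were Timp3 and Serpine2, both inhibitors of proteases.

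Ifi27l2a showed the widest gap. Its sponge and silk levels were 957 and 158 CPM in F1, 244 and 29.7 CPM in F2, 706 and 49.6 CPM in F3, 1055 and 185 CPM in F4, and 545 and 46.9 CPM in Low quality. No silk label reached any sponge label. In endothelial cells it was 289 and 115 CPM.

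Il1rl1 encodes ST2, the receptor for the alarmin interleukin-33. It stood at 558 CPM in sponge and 119 CPM in silk in F1, 357 and 111 CPM in F2, 721 and 61.5 CPM in F3, 407 and 43.0 CPM in F4, and 190 and 31.3 CPM in Low quality. All silk labels were below all sponge labels. In F3, the label with the highest sponge level, the list of mast cell and basophil markers also differed. It summed to 164 CPM in sponge F3 and 0.854 CPM in silk F3. The part of such RNA in the F3 difference was not tested. NK and T cells went the other way for Il1rl1, at 52.8 CPM in sponge and 298 CPM in silk.

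Mt1, a metallothionein that binds zinc and copper, was lower by log2 ratios from -1.54 to -1.19, for example 2591 and 1008 CPM in F1 and 1894 and 645 CPM in F2. C4b, a complement component, stood at 518 and 204 CPM in F1 and at 350 and 58.1 CPM in F4. Zbp1, a sensor of nucleic acids, stood at 82.6 and 20.6 CPM in F1 and at 87.6 and 13.7 CPM in F3. Of the 5 genes added without Low quality, Isg15 and Bst2 are interferon-induced and Cxcl9 is a T cell chemokine induced by interferon gamma. Isg15 stood at 171 CPM in sponge and 43.9 CPM in silk in F1, and at 188 and 13.2 CPM in F3. Cxcl9 stood at 145 and 9.83 CPM in F3 and at 177 and 5.81 CPM in F4.

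Timp3, which inhibits matrix metalloproteinases, stood at 133 CPM in sponge and 423 CPM in silk in F1, 277 and 658 CPM in F2, 185 and 644 CPM in F3, 107 and 252 CPM in F4, and 95.1 and 224 CPM in Low quality. Serpine2, an inhibitor of thrombin and plasminogen activators, stood at 62.8 and 160 CPM in F1, 238 and 496 CPM in F2, 48.1 and 409 CPM in F3, 67.4 and 339 CPM in F4, and 69.2 and 396 CPM in Low quality. Within each label the silk value was higher, although sponge F2 exceeded silk F1 for Serpine2, and silk F4 and Low quality for Timp3. Timp3 in endothelial cells differed less (385 and 461 CPM), and Serpine2 there stood at 29.6 and 116 CPM.

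Genes of fibrillar collagen were close to level between the materials. Col1a1 stood at 21746 CPM in sponge and 21877 CPM in silk in F1, and at 21537 and 18095 CPM in F2. The list of 15 collagen genes had a median within-label part of 0.20 on the log2 scale in fibroblasts, against 0.06 for all genes. A within-label part is what remains of a class difference once the mix of labels is held fixed.

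Some fibroblast differences belonged to 1 or 2 labels. Pi16, a marker of adventitial fibroblasts, stood at 168 CPM in sponge and 702 CPM in silk in F1 and at 100 and 88.9 CPM in F4. Saa3 went in opposite directions, at 1178 and 2772 CPM in F1 and at 6758 and 2922 CPM in F2. Ccl2, at 1585 and 1249 CPM in F1 and 1417 and 1374 CPM in F2, differed far less in these fibroblasts than in C6 or C7, and Ccl7 in F2 was 680 and 675 CPM.

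In neutrophils, 16 of 1514 genes measured in N1, N2 and N3 were at least 2-fold lower in silk in all 3 (1.06%) and 2 were at least 2-fold higher (0.132%). Of the 16, Col3a1, Col1a1, Col1a2 and Sparc are matrix genes, C1qa and C1qb are macrophage complement genes, and Ccl2, Ccl8 and Saa3 are genes that were high in other sponge cells. Ccl8 stood at 193 CPM in sponge and 2.53 CPM in silk in N1 and at 190 and 12.6 CPM in N2. In N3 it was 729 CPM in sponge and 0 UMIs in silk, which is at least 90.6-fold lower against a floor of 3 counts in that label. Macrophage markers summed to 3018 CPM in sponge N1 and 1509 CPM in silk N1, and to 17306 and 15185 CPM in N3.

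Genes abundant in neutrophils were among the 16 as well. Wfdc17, a small protein of the whey acidic protein family, stood at 4270 CPM in sponge and 1114 CPM in silk in N1, 3101 and 803 CPM in N2, and 1356 and 271 CPM in N3. Retnlg, a resistin-like protein of neutrophils, stood at 8994 and 3032 CPM in N1, 1374 and 463 CPM in N2, and 1136 and 394 CPM in N3. Lcn2, which withholds iron from bacteria, stood at 2048 and 760 CPM in N1, 2941 and 387 CPM in N2, and 643 and 164 CPM in N3. Each was lower in silk within every label. Wfdc17 was also high in Mo-Mac cells, at 1400 CPM in sponge and 694 CPM in silk in C3, 1894 and 1751 CPM in C5 and 627 and 288 CPM in C7. It was low in endothelial cells (96.5 and 23.7 CPM), as was Retnlg (19.8 and 1.47 CPM).

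The list of neutrophil maturation and granule genes showed the same direction for most members, with within-label parts below zero in 13 of 16 and above in 3. Of 10 neutrophil markers, 7 lay below zero and 3 above. The highest level over the labels rose for G0s2 (2818 CPM in sponge and 6253 CPM in silk) and Hdc (3015 and 4424 CPM). The maturation and granule list had a median log2 ratio of -0.96 in N1, -1.41 in N2 and -1.05 in N3. At least 2-fold lower were 6 of 14 measured members in N1, 8 of 14 in N2 and 7 of 13 in N3. At the count limits for a measured gene, the shares of all genes 2-fold lower were 1.42%, 11.0% and 5.08%. The medians of all genes were 0.27, 0.04 and 0.10. S100a8, a calcium-binding protein that fills neutrophil cytosol, stood at 93243 CPM in sponge and 46041 CPM in silk in N1, 53569 and 41311 CPM in N2, and 14886 and 7548 CPM in N3. Mmp8, the collagenase of neutrophil granules, stood at 427 and 215 CPM in N1, 97.4 and 8.41 CPM in N2, and 90.6 and 34.9 CPM in N3. In silk N2 Mmp8 rests on few UMIs.

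The 2 higher genes were Adgre5, the adhesion receptor CD97, and Ezr, which ties the membrane to actin. Adgre5 stood at 189 CPM in sponge and 533 CPM in silk in N1, 391 and 892 CPM in N2, and 217 and 453 CPM in N3. Ezr stood at 215 and 537 CPM in N1, 504 and 1716 CPM in N2, and 294 and 606 CPM in N3. With each label centred on its median gene, or with an offset of 50 CPM, neither passed 2-fold in all 3.

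Over all 15 subclusters together, 749 genes were measured in every one and 0 were at least 2-fold apart in every one, lower or higher (0.0%). By direction alone 19 lay below zero in all 15 and 20 above. With the largest smallest difference among these, Ccl8, Ifitm3, Ubb and Irf1 were lower and Irf2bp2, Dusp1 and Hnrnpf higher. Ccl8 had its smallest gaps in F3 (112 and 57.2 CPM) and F2 (115 and 55.8 CPM), which kept it short of 2-fold in all 15. Dusp1 is on the list of 23 dissociation stress and immediate early genes. The sum of that list had log2 ratios of 0.71 in N1, 0.39 in F1 and 0.29 in N2. It was below zero in C6 (-0.13), C8 (-0.11) and N3 (-0.21). The part of tissue handling in these differences was not tested.

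The interferon response was lower in silk inside nearly all subclusters, with C4 as the exception. The list of 38 genes induced by type I interferon had a median log2 ratio of -0.49 in C3, -0.72 in C5, -0.86 in C6, -0.64 in C7, -1.56 in C8 and -0.76 in C9. In fibroblasts it was -0.73, -0.60, -1.15 and -0.90 in F1 to F4, and in neutrophils -0.24, -1.04 and -1.46 in N1 to N3. The medians of all genes in these labels lay between 0.00 and 0.27. Members at least 2-fold lower were 31 of 35 in C8, 14 of 35 in C6, 9 of 37 in C7, 20 of 36 in F3, 14 of 37 in F4 and 25 of 31 in N3, against 3.33%, 0.772%, 0.465%, 0.985%, 1.5% and 4.27% of all genes counted the same way.

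In C4 the list stood the other way, with a median of 0.81 against 0.05 for all genes, 34 of 38 members above zero and 11 of 38 at least 2-fold higher (0.676% of all genes). Rsad2, the antiviral enzyme viperin, stood at 230 CPM in sponge and 882 CPM in silk, a ratio of counts of 1.94 on the log2 scale (95% counting interval 1.82 to 2.06). Cxcl10, a chemokine for T cells, stood at 199 and 677 CPM, and Irf7, the regulator of interferon genes, at 308 and 473 CPM. Isg15, a ubiquitin-like protein, differed little (349 and 456 CPM). Silk C4 holds 139 cells against 2542 in sponge. Cxcl10, Rsad2 and Isg15 are among the leading genes of C4, and the authors drew the label on the expression of these same cells, so the level inside C4 depends on where that border fell and is a description.

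Outside C4 most of these values lay lower in silk. Irf7 stood at 84.4 CPM in sponge and 14.4 CPM in silk in C7. Isg15 stood at 98 and 25.1 CPM in C6 and at 111 and 6.55 CPM in C8. Rsad2 stood at 58.5 and 11.7 CPM in C6 and was level in C3 (68.4 and 68.7 CPM). Cxcl10 in C8 was 86.8 CPM in sponge and 0 UMIs in silk, at least 22.1-fold lower against a floor of 3 counts.

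Counted per cell, the response was thinner in silk outside C4. Each cell was thinned to 500 UMIs, and cells with at least 3 UMIs of the type I list were counted. In C7 they made up 2.38% of silk and 8.73% of sponge cells (64.6% and 86.8% without thinning). In C5 they made up 9.62% and 52.5% (62.5% and 96.9%), in C3 44.6% and 67.3% (93.8% and 99.2%), and in F3 0.84% and 17.2% (89.9% and 98%). In C4 the shares were 66.9% of silk and 58.2% of sponge cells (99.3% and 99.1%), and the mean was 6.05 and 3.8 list UMIs per thinned cell. In C6, 71 silk cells were too shallow and were left out.

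**Figure D3:**
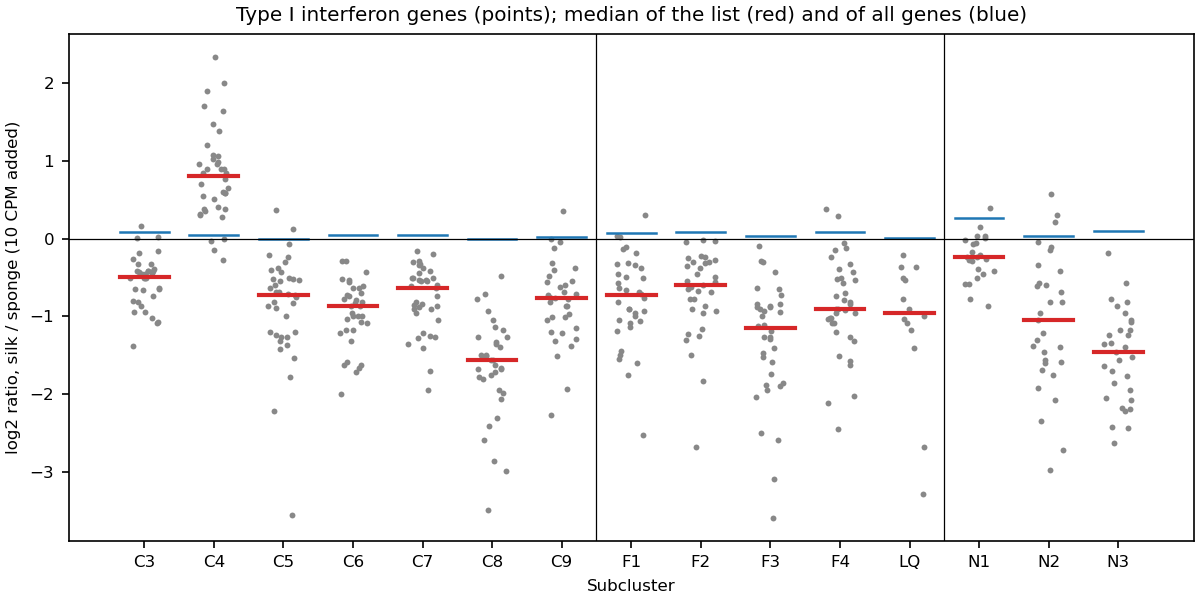
Log2 ratio of silk to sponge at 2 weeks (vertical axis, 10 CPM added) of each measured gene of the type I interferon list (points) in the 15 subclusters (horizontal axis, LQ is Low quality), with the median of the list in red and of all genes in blue. C4 is the subcluster with a median above zero (0.81), and C8 has the lowest median (-1.56).

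Genes that interferon gamma induces had medians below zero in all these subclusters, C4 included. The median of the 23-gene list was -0.56, -0.20, -0.74, -0.58, -0.51, -1.54 and -1.08 in C3 to C9, and -0.65, -0.55, -0.82 and -0.71 in F1 to F4. In neutrophils it was -0.08 in N1, -2.42 in N2 and -1.90 in N3. In C4, where the type I list was higher, 15 of 21 measured members lay below zero. The neutrophil subcluster N1 had 7 of 12 below zero.

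As examples, promoter stretches of 80 bases were read from RefSeq (GRCm38.p6) for some genes named above that held an ISRE or GAS match. Other genes named above, Irf7 among them, held no ISRE match. Capitals mark the motif found by searching both strands for ISRE (GAAA, any 2 bases, GAAA) or, in Irf1, for GAS (TTCNNNGAA). In Isg15 3 matches overlap, and in Rsad2 the match lies on the opposite strand, so its letters read as the reverse complement. The stretches lie at chr4:156200840-156200919 (minus strand) for Isg15, chr12:26456528-26456607 (minus) for Rsad2, chr5:92349058-92349137 (minus) for Cxcl10, chr1:173942493-173942572 (minus) for Ifi203 and chr11:53769888-53769967 (plus) for Irf1. Each lies within the 250 bases before the start of transcription.
Isg15: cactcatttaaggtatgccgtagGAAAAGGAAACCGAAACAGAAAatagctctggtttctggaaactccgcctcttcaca
Rsad2: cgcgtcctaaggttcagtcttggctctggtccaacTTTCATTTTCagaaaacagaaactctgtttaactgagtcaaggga
Cxcl10: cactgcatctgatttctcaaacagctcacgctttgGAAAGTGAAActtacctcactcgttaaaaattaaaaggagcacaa
Ifi203: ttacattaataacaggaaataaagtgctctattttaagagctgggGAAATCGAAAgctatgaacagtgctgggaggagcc
Irf1: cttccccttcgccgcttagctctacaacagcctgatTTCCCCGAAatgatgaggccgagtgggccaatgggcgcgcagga

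The ISRE letters stood in 15 of the 29 type I list promoters that matched the table by symbol (51.7%), against 3.99% of all 27025 promoters, each window running from 250 bases before to 50 bases after the start. In the interferon gamma list 11 of 19 promoters held ISRE (57.9%) and 9 held GAS (47.4%, against 9.55% of all). Of the 8 genes lower in every fibroblast label, 4 matched the table and 1, Ifi203, held ISRE. A match of letters is a description of these windows and no measure of binding.

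Monocyte chemokines as a list of 8 had medians of -2.01 in C4, -1.87 in C6, -1.38 in C7 and -3.16 in C8, with 6 of 8 members at least 2-fold lower in each of these 4. The medians in C3, C5 and C9 were -0.78, -0.61 and -0.99. The medians of all genes lay between 0.00 and 0.08 in these labels. At the count limits given above for a measured gene, 1.67%, 1.72%, 1.24% and 4.36% of genes were 2-fold lower in C4, C6, C7 and C8. Fibroblasts differed less, with -0.40 in F1 and -0.26 in F2, and more in F4 (-1.18), the label led by macrophage genes.

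Genes under the antioxidant factor NRF2 leaned higher in silk in Mo-Mac cells and neutrophils. The list had medians of 0.53 in C6 with 13 of 13 measured members above zero, 0.42 in C7 with 10 of 14, 1.10 in C8 with 11 of 11, and 1.25 in N2 with 12 of 12. It stayed near the median of all genes in F1 (-0.22), F2 (0.08) and F3 (0.06). Hmox1, which breaks down haem, was almost level in C7 (1295 and 1326 CPM) and higher in silk N2 (2013 and 3613 CPM), the label in which haemoglobin RNA also differed. At 4 weeks, in a different pair of libraries, the list stood the other way in C6 (median -0.50, 10 of 13 members below zero) and in C7 (-0.12, 9 of 14). The motif of this factor, TGACNNNGC, stood in 6 of 10 matched promoters of the list (60.0%) and in 14.0% of all promoters.

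Antigen presentation by MHC class II was split by subcluster. All 7 measured genes were above zero in C6 (median 0.84) and in C7 (0.69), and all 6 in C5 (0.67). They were lower in C4 (median -0.80, 7 of 8 below zero) and in C8 (-1.60, 6 of 7). H2-Aa stood at 1355 CPM in sponge and 2748 CPM in silk in C6, at 2391 and 1338 CPM in C4, and at 1110 and 326 CPM in C8. C9, the mixed dendritic and mast cell label, had H2-Aa at 7102 and 7993 CPM.

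Phagocyte receptors and lysozymes, a list of mixed direction, had medians of 0.09 in C6 with 4 of 15 measured members at least 2-fold higher and 1 lower, 0.39 in C7 with 4 and 2 of 15, and 1.04 in C8 with 7 and 2 of 14. The medians of all genes were 0.05, 0.05 and 0.00. At the count limits for a measured gene, 0.86%, 0.979% and 4.12% of genes were 2-fold higher in C6, C7 and C8. The shares 2-fold lower were 1.72%, 1.24% and 4.36%. Lyz1, a lysozyme, stood at 65.9 CPM in sponge and 174 CPM in silk in C6, at 294 and 633 CPM in C7 and at 71.3 and 663 CPM in C8. Its near-identical relative Lyz2 can share reads with it. Cx3cr1, the fractalkine receptor, stood at 36.4 and 166 CPM in C6 and at 38.1 and 132 CPM in C7. Fn1, the matrix protein fibronectin, stood at 5456 and 10817 CPM in C7, at 1375 and 4098 CPM in C4, and at 1214 and 1198 CPM in C5. Retnla, a product of alternative activation, went the other way in C7 and C8, at 150 and 21.3 CPM in C7 and 456 and 2.62 CPM in C8, but 307 and 675 CPM in C5. Folr2, a folate receptor of resident macrophages, stood at 222 and 26.9 CPM in C7 and at 593 and 344 CPM in C5.

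Class sums were then split into a part from the mix of subclusters and a part from inside them. A label's contribution is its share of the class's UMIs times its profile, and the composition part averages over both orders of exchange. A shift in cell state that moved cells across a border between labels counts here as composition by construction. In Mo-Mac cells, 149 of 3199 genes were at least 2-fold lower in the silk class sum (4.66%) and 56 higher (1.75%). Composition made up 50% or more of the difference in 118 of the 149 lower genes (79.2%) and in 22 of the 56 higher genes (39.3%). The side depended on the order of exchange for 48 lower and 10 higher genes. Without C4 the count mostly due to composition was 60 of 169 instead of 140 of 205.

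Named genes show both kinds. The Mo-Mac class ratio of Cxcl10 was -2.17, made of -2.58 from composition and 0.41 from inside labels. Rsad2 was -1.79, made of -2.16 and 0.37, and Isg15 -2.63, made of -2.01 and -0.62. For these interferon genes composition was the larger part, and C4 is the label that they lead. Ccl8 (-5.98), Ccl7 (-4.03) and Ccl2 (-3.33) had within-label parts of -3.22, -2.13 and -2.01, so they differed by both routes. Among higher genes, Mmp12, the macrophage elastase, was 1.48 with 1.28 from composition. Lyz1 was 2.07, with 0.99 from composition and 1.08 from inside labels, and Cx3cr1 was 1.90 with 1.49 from inside labels.

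In fibroblasts 78 of 3371 genes were lower (2.31%) and 47 higher (1.39%), and composition was the larger part for 20 (25.6%) and 10 (21.3%). These shares rest on single labels: without F4 the count was 46 of 131, instead of 30 of 125, beside 60 of 169 in Mo-Mac cells without C4. Clec3b, a gene of F1, was -1.49 with -1.63 from composition, and Mmp13, a collagenase of F2, was 2.07 with 1.24. Cxcl5, a neutrophil chemokine, was 1.06, all of it composition (-0.00 from inside labels). Il1rl1 (-2.38) and Ifi27l2a (-3.44) had within-label parts of -2.22 and -2.69, and Timp3 (1.78) and Serpine2 (2.12) of 1.41 each.

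In neutrophils 84 of 2456 genes were lower (3.42%) and 83 higher (3.38%), and composition was the larger part for 6 (7.14%) and 9 (10.8%). Tnf was -1.15 with -0.90 from composition, and Il1r2, the decoy receptor of interleukin-1, was 1.22 with 0.64. In Mo-Mac cells the median class ratio over the type I interferon genes was -1.42, with parts of -1.21 from composition and -0.23 from inside labels. In fibroblasts it was -0.94 with -0.30 and -0.68, and in neutrophils -0.97 with -0.10 and -0.72. Without C4 the Mo-Mac within-label part was -0.74.

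**Figure D4:**
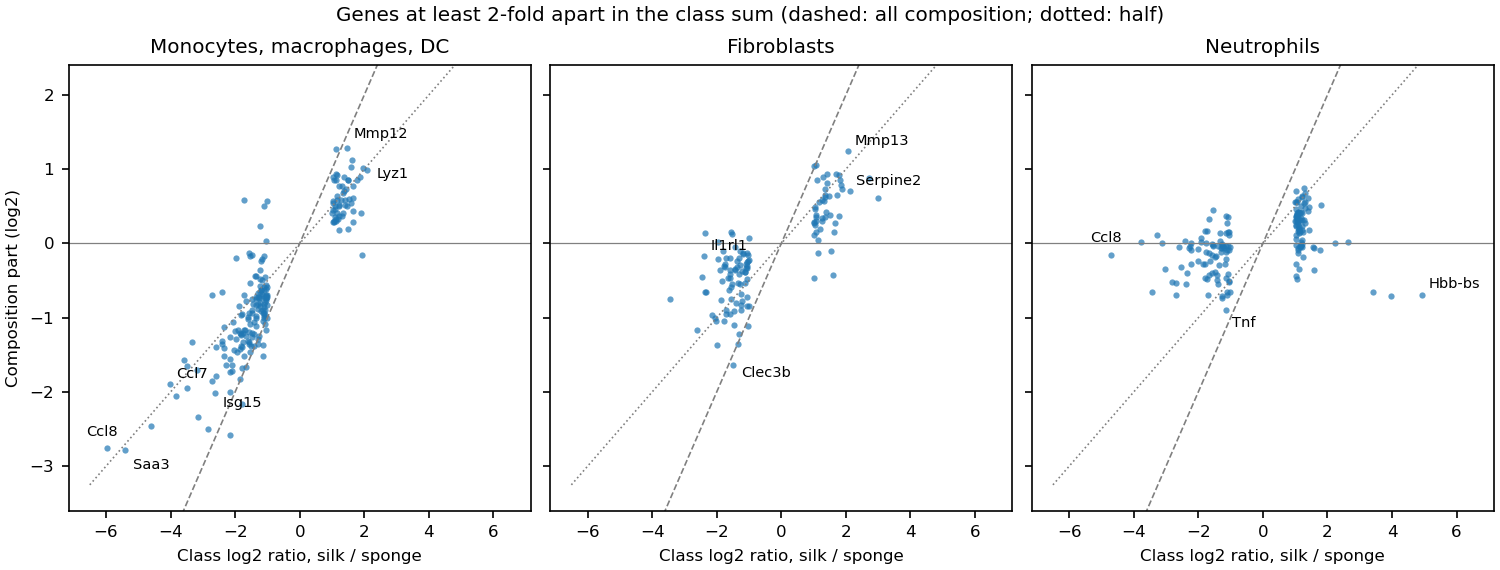
Composition part (log2, vertical axis) against the class log2 ratio of silk to sponge (horizontal axis) for genes at least 2-fold apart in the class sum, in Mo-Mac cells, fibroblasts and neutrophils. Points near the dashed line are all composition, points near zero are all within labels; 118 of 149 lower Mo-Mac genes and 6 of 84 lower neutrophil genes lie at 50% or more.

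Cell classes without compared subclusters gave the same directions for several genes. The median over the type I interferon genes was -0.74 in endothelial cells, with 38 of 38 members below zero and 11 at least 2-fold lower, and -0.54 in NK and T cells. Irf1 stood at 265 CPM in sponge and 142 CPM in silk endothelial cells and at 129 and 88.7 CPM in NK and T cells. Mt1 was 139 and 54.0 CPM in endothelial cells, and Plac8 410 and 97.9 CPM in NK and T cells.

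At 4 weeks a different pair of libraries allowed the same comparison in 8 of the 15 labels, with 7082 cells in all. Of the genes lower in silk at 2 weeks and measured again, 29 of 36 in C6 and 18 of 21 in C3 kept their sign, against 61.1% and 56.7% of all genes. In F1, 43 of 52 higher genes did so, against 38.4% of all genes. In C7 it was 12 of 21 lower genes, close to the 54.5% of all genes, and in F1 28 of 50 lower genes against 61.6%. Higher genes kept their sign less often than all genes in C9 (25% and 37%), F2 (46.4% and 49%) and Low quality (12.8% and 17.6%). Lower genes were close to all genes in C9 (65.7% and 63%), Low quality (84.6% and 82.4%) and N1 (70.6% and 70%). Lower genes of F2 lay above (63% and 51%), as did higher genes of C7 (52.2% and 45.5%). Higher genes of C3 (80% and 43.3%), C6 (64.3% and 38.9%) and N1 (57.1% and 30%) lay further above.

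Some chemokines and phagocyte genes of C6 and C7 were apart at both times. The list of 8 monocyte chemokines was mixed at 4 weeks. In C6 its median was -0.44, with 2 members at least 2-fold lower and 2 higher. In C7 it was -0.43, with 2 lower and 1 higher. Of all genes at 4 weeks, 2.25% were 2-fold lower and 1.06% higher in C6, and 0.492% each in C7. Ccl7 had log2 ratios of -3.41 at 2 weeks and -2.11 at 4 weeks in C6, and of -3.22 and -1.78 in C7. Ccl2 had -2.79 and -1.87 in C6, and Lyz1 had 1.28 and 2.53 in C6 and 1.08 and 1.53 in C7. Cx3cr1 had 1.93 and 1.36 in C6. MHC class II genes stood further apart at 4 weeks, with a median of 1.73 in C6 and 1.48 in C7. In fibroblasts Il1rl1 had -2.14 and -2.77 in F1 and -1.60 and -2.61 in F2, and Cxcl2, a neutrophil chemokine, had -2.06 and -1.86 in F1.

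Other genes differed less at 4 weeks in some labels and not in others. Irf1 was 42.8 CPM in silk and 42.7 CPM in sponge in C6, and 22.6 and 22.8 CPM in C7, but its log2 ratio in N1 was -1.20 at 2 weeks and -1.60 at 4 weeks, where silk had 2 UMIs. Ccl8 in C6 was 17.4 and 22.2 CPM, too low in both libraries to be counted as measured, while in Low quality it was -2.14 and -1.97, also on 2 silk UMIs at 4 weeks. Irf2bp2 had log2 ratios of -0.26 in C6 and -0.22 in C7. Timp3, higher in silk F2 at 2 weeks, stood at 17.5 CPM in silk and 414 CPM in sponge F2 at 4 weeks, and at 187 and 134 CPM in F1. In Low quality Timp3 was 1.16 and 1.54.

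At 4 weeks the genes induced by type I interferon lay below zero at the median in 7 of the 8 labels. It was -0.73 in C6 with 29 of 32 members below zero, -0.45 in C7 with 35 of 36, -0.26 in C3 with 30 of 35 and -0.47 in C9 with 18 of 22. In fibroblasts it was -0.40 in F1 with 30 of 36, -0.33 in F2 with 27 of 34 and -0.36 in Low quality with 3 of 5, and in N1 it was 0.10 with 6 of 12. The medians of all genes lay between -0.14 and 0.01. The interferon gamma list, lower in silk at 2 weeks, lay near zero in several labels at 4 weeks. Its medians were -0.04 in C3, 0.03 in C6, -0.05 in C7, 0.14 in F1 and -0.09 in F2. In C9 the median was 0.17, with 5 of 15 members at least 2-fold higher, against 1.26% of all genes. It was 0.65 in Low quality on 2 measured members. In N1 it was -1.41 with 5 of 5 at least 2-fold lower, against 15.5% of all genes. N1 held 59 silk cells at 4 weeks. Whether the differences at 2 and 4 weeks themselves differ was not tested.

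**Figure D5:**
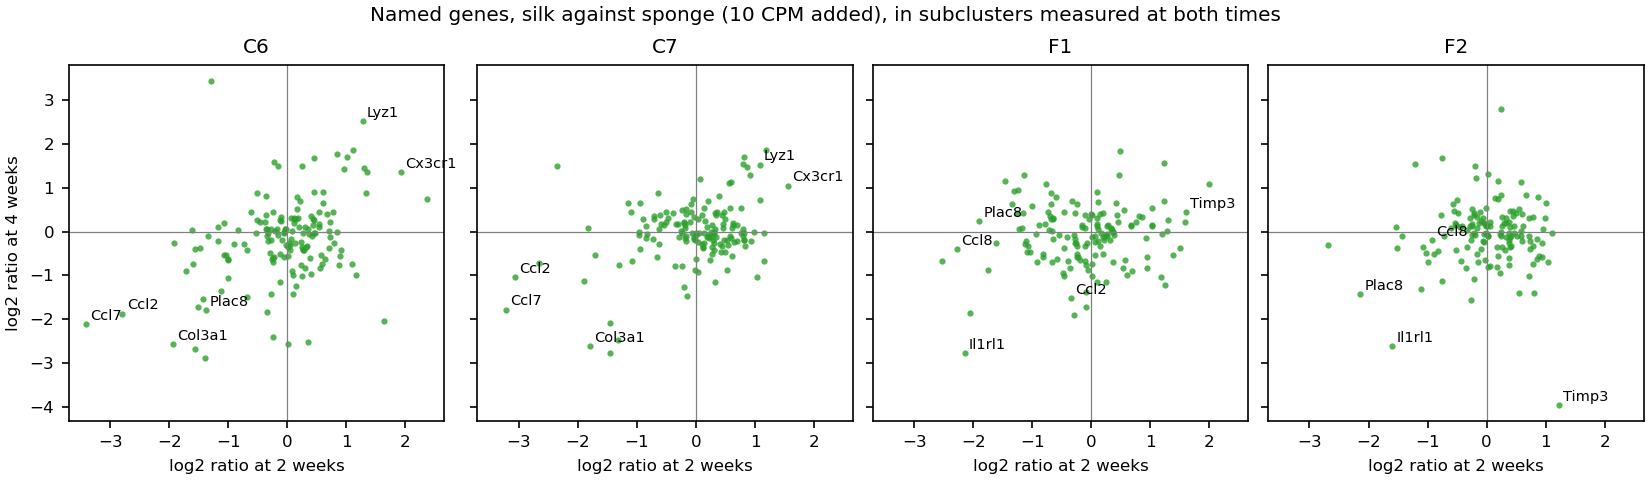
Log2 ratio of silk to sponge at 4 weeks (vertical axis) against 2 weeks (horizontal axis) for named genes (points) in C6, C7, F1 and F2. Ccl7 and Ccl2 lie below zero on both axes in C6 and C7, Lyz1 and Cx3cr1 above zero on both.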

How the data were processed

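The authors deposited raw UMI counts per gene and cell, with a table of cells that gives each cell's library, class, subcluster and percent of mitochondrial UMIs. The submitters' processing notes name Cell Ranger 3.0.0, Seurat 3.0 and the build mm10 without their roles. Steps before deposit, such as filters on cells, have no record in the labels or headers. The counts held 21617 genes in 41191 cells, and the sum per cell equalled the deposited total for all 41191. Median depth was 4201 (silk) and 5206 (sponge) UMIs per cell.

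Counts were summed per library and deposited subcluster with at least 50 cells in both libraries and expressed per 1000000 UMIs of the label (CPM). Ratios carry an offset of 10 CPM. Intervals are exact conditional binomial 95% intervals of a ratio of counts, with 0.5 counts added for the estimate, and exact (Clopper-Pearson) ones for shares. The limit for 0 counts is set by 3 counts. With 1 library per group, no test was run. "In every subcluster" means measured and at least 2-fold apart, in 1 direction, in each compared label. The sums were checked on simulated data. No cells were removed. The doublet caller (Scrublet, in scanpy 1.11.5) marked 0% of silk and 0.0162% of sponge cells and so has not worked. Only its score was used, in an alternative that leaves out the highest 5% of cells of each library.

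The labels compared, the members and the 44 gene lists were chosen with earlier results of these data known. Named genes exclude predicted models, sex-linked, ribosomal, mitochondrial and haemoglobin genes and those of antigen receptors. They are, per class (Mo-Mac, fibroblasts, neutrophils), the 12, 8 and 6 highest and lowest by the smallest log2 ratio over all labels, and the 8 highest and 8 lowest over all classes. Added were the 8 (Mo-Mac) or 4 largest composition parts in each direction, the 5 widest opposite pairs per class, up to 4 members of each list, and Ccl2, Ccl7, Lyz1, Lyz2, Cx3cr1, Itgax, Dcstamp, Ocstamp, Isg15 and Rsad2. Genes beyond this rule were chosen after their values were seen. Haemoglobin genes are named for mixture. Near-identical copies (Lyz1 and Lyz2, the Ifi203 family, C4b, Ifitm2 and Ifitm3) can share reads. Positions follow GENCODE M21 on GRCm38. Alternatives varied the offset, the count limits, the scaling, depth, doublet scores, the weighting of cells and the labels used. Python 3.11.15, numpy 2.4.6, scipy 1.17.1, pandas 2.3.3 and matplotlib 3.10.9 were used.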

Additional observations from a re-analysis of the deposited data

Results flagged for a closer look

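Some genes were at least 2-fold apart between silk and sponge in opposite directions in different subclusters of a class: 17 in Mo-Mac cells, 11 in fibroblasts and 7 in neutrophils. Genes measured in any subcluster numbered 4673, 4522 and 3543, so such genes were rare. These totals also hold the gene groups left out of naming. The gap between the highest and the lowest log2 ratio is given for the widest 5 per class, and none of these differences was tested. In Mo-Mac cells Retnla was 1.11 in C5 and -5.21 in C8, a gap of 6.32. Cxcl10 was 1.71 in C4 and -3.27 in C8, a gap of 4.99, where silk C8 had 0 UMIs. Ccl24, an eosinophil chemokine, had a gap of 4.27 between C9 and C8, and Rsad2 one of 3.68 between C4 and C8. Gpnmb, a glycoprotein of lipid-laden macrophages, had a gap of 3.68 between C5 and C9. C8 holds 61 silk cells.

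In fibroblasts Eln, which encodes elastin, had a gap of 6.01 and Cxcl9 one of 5.21, both between Low quality and F4. Cdkn1c, a cell cycle inhibitor, had a gap of 4.45 and C1qtnf3 one of 3.57 between F1 and Low quality. Cxcl3, a neutrophil chemokine, was 2.54 in F4 and -1.21 in F2, a gap of 3.75. In neutrophils, gaps between N1 and N2 were 3.63 for Egr3, 3.61 for the tissue factor gene F3 and 2.91 for Il1a. Igfbp6 had a gap of 3.30 between N3 and N2 and Plac8 one of 3.2 between N1 and N3. N2 is the label whose haemoglobin RNA differed between the libraries, at 3895 CPM in silk and 4.64 CPM in sponge, and the part of such mixtures was not tested.

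Type I interferon genes had a median log2 ratio of 0.81 in C4 and medians below zero in the other 6 Mo-Mac subclusters. This difference was not tested.

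The subcluster KC, which was not compared, held 32 of 946 silk fibroblasts (3.38%, exact 95% interval 2.33 to 4.74) and 0 of 2311 sponge fibroblasts, which allows a share of up to 0.13% by a limit of 3 counts (0.159% by the exact interval). Its cells carried markers of mesothelium, the lining of body cavities. Msln stood at 722 CPM in KC and 0.392 CPM in the compared silk fibroblasts, Upk3b at 1804 and 0.392 CPM, Krt19 at 866 and 1.72 CPM, and Wt1 at 628 and 4.23 CPM.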

How the results depend on the processing

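Among the counts and medians recomputed here no sign reversed, but centring each label on its median gene turned the larger side of the calls in N1 (54 lower and 36 higher), C4 (61 and 41), F1 (65 and 64) and C8 (143 and 157). Counts of genes apart in every subcluster were small and moved with the settings, while the 0 genes over all 15 subclusters stayed 0 in each. With an offset of 1 CPM the neutrophils had 4 higher genes instead of 2. With 50 CPM the fibroblasts had 4 lower and 0 higher, the neutrophils 8 and 0, and genes mostly due to composition numbered 69 in Mo-Mac cells, 12 in fibroblasts and 5 in neutrophils, instead of 140, 30 and 15. Asking for 100 UMIs left 4 lower and 0 higher in fibroblasts and 8 lower in neutrophils. With no count limit there were 6 lower and 1 higher in Mo-Mac cells, 26 and 6 in neutrophils, and 47 fibroblast genes mostly due to composition. Centring each label on its median gene left 0 higher in fibroblasts and in neutrophils. With cells thinned to 500 UMIs there were 0 lower in Mo-Mac cells, 4 lower and 0 higher in fibroblasts, 7 and 1 in neutrophils, and 23 neutrophil genes mostly due to composition. Without the highest doublet scores there were 5 lower and 1 higher in fibroblasts, 8 and 1 in neutrophils, and 31 neutrophil genes mostly due to composition. Averaging over cells left 0 higher in fibroblasts. Asking for 100 cells gave 20 higher in neutrophils. Without C9 there were 5 lower in Mo-Mac cells and without Low quality 13 in fibroblasts. Shares of cells in place of UMIs gave 29 neutrophil genes mostly due to composition. Chosen after seeing the data, leaving out C4 gave 60 Mo-Mac genes mostly due to composition and a within-label part of the type I interferon list of -0.74 instead of -0.23. Leaving out F4 gave 46 such fibroblast genes. Leaving out N2 gave 9 higher in neutrophils and 2 mostly due to composition, and leaving out N3 gave 20 and 36. The other 107 values stayed within 1.5 times. No paired analysis was possible because each group is 1 library and the labels carry no replicate numbers. Genes with few UMIs in C8, N2, N3 and the shallow Low quality label are limited by depth.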
